A study of Mus musculus with 12 samples.

Results

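The 10 genes described here encode the cytoplasmic actins Actb and Actg1 and 8 proteins that bind the actin monomer or help to release it from filaments: Cfl1, Cfl2, Dstn, Pfn1, Pfn2, Tmsb4x, Tmsb10 and Cap1. They were chosen by symbol, from GENCODE identifiers, out of the 43346 annotated mouse genes in the gene tables, and all 10 were found. The 12 Smart-seq RNA-seq libraries came from 1 male adult mouse of strain B6CASTF1/J, a cross of Castaneus and C57Bl6, aged 14 months. In this mouse 13 Purkinje cells were excised, pooled and homogenized, and each library was made from 1 cell-equivalent of the pool, taking total RNA longer than 200 bases with spike-ins added. All libraries share biological replicate number 1 and carry technical replicate numbers 1 to 6 and 8 to 13, by which they are named below. The libraries form a single group without treatment or control, so the comparisons are between genes and transcripts within libraries, and every p-value measures only the spread between splits of 1 pool from 1 animal.

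Actin cycles between monomers and filaments. Profilins deliver ATP-bound monomers to growing filament ends, beta-thymosins hold monomers in reserve, and proteins of the ADF/cofilin family, which are Cfl1 (cofilin-1), Cfl2 (cofilin-2) and Dstn (destrin, also called ADF), sever old filaments and speed their disassembly. Cyclase-associated proteins such as Cap1 work with cofilin and recharge the released monomer with ATP. In Purkinje cells, the inhibitory output neurons of the cerebellar cortex, actin fills the heads of the dendritic spines that receive parallel fibre and climbing fibre input.

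Because the members come in related pairs, their sequences bear on how well reads can be assigned to each. The first 90 coding bases of the 2 actins are printed from the GENCODE M21 transcripts on mm10, with capitals at the 16 positions where they differ. They lie at chr5:142905597-142905686 (Actb, minus strand) and chr11:120348002-120348091 (Actg1, minus strand), each within 1 exon.
Actb: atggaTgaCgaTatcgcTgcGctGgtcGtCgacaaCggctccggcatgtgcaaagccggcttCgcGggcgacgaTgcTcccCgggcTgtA
Actg1: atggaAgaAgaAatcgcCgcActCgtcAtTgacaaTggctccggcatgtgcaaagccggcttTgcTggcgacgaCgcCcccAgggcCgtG
Over the whole coding sequence of 1128 bases the 2 actins were 88.7% identical, and the longest stretch they shared was 62 bases. No window of 100 bases, the length that the tables' effective lengths correspond to, was common to any 2 members' leading transcripts.

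The 2 thymosins have the shortest coding sequences of the set and are printed whole, with capitals at the 40 positions of 135 where they differ. Each spans 2 exons, between chrX:167207501-167208036 (Tmsb4x, minus strand) and chr6:72957618-72958012 (Tmsb10, minus strand).
Tmsb4x: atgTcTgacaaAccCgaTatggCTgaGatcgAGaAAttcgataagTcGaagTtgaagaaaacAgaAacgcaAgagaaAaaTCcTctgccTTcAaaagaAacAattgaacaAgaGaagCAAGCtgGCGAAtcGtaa
Tmsb10: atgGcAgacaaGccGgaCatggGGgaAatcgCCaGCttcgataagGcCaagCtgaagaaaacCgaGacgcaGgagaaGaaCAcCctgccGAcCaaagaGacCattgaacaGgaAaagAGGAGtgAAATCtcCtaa
The thymosins were 70.4% identical, the profilins Pfn1 and Pfn2 61.5% over 423 bases, and Cfl2 and Dstn 67.7% over the 496 positions where both have a base. Cfl1 was 71.9% identical to Cfl2 over the 501 such positions.

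Some 100-base windows of Actg1, Cfl1 and Tmsb10 are shared with near-identical copies elsewhere in the genome. Of the 100-base windows in the leading Actg1 transcript, 54.7% also occurred, base for base, in an annotated near-identical copy (at least 95% identical over at least 100 bases). For Tmsb10 the share was 27.8%, for Cfl1 0.858%, and for the other 7 members 0. The copies of Actg1 in the tables, Gm8399, Actg-ps1 and Gm12715, stood at 29.2 ± 16.7, 16.5 ± 10.4 and 1.57 ± 1.11 TPM (a length-corrected share of all transcripts; SD, n = 12), together 5.71% of Actg1 plus its copies. The Cfl1 copy Gm6180 stood at 3.76 ± 2.42 TPM and the Tmsb10 copy Gm3788 at 2.60 ± 2.21 TPM. The Tmsb10 copy that shares most windows, 115 of 131, is Gm9844, annotated as protein-coding, at 0.64 ± 0.519 TPM. How the quantification split shared reads is an estimate, so Actg1 and Tmsb10 carry that uncertainty. The 3′ ends of Cfl1 and Cap1 overlap genes on the opposite strand, Snx32 (34.9 ± 59.7 TPM) and Ppt1 (44.4 ± 49.1 TPM), and whether the counting used strand is not given in the sources used here.

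The libraries held 15167444 to 27806010 expected counts (read numbers estimated per feature). All 8 of 8 Purkinje markers, led by Pcp4, had at least 50 counts in every library and summed to 20414 to 35900 TPM. Of the 8 Bergmann glia markers, led by Slc1a3, 7 had that many in every library, and all 8 summed to 1342 to 3638 TPM. Granule cell markers (Gabra6 highest) summed to 63.1 to 664 TPM, oligodendrocyte markers (Cnp highest) to 91.3 to 375, red blood cell markers (Hba-a1 highest) to 362 to 1551 and interneuron markers (Lgi2 highest) to 1.25 to 106. Of the 10 microglia markers, led by Ctss, C1qc and Fcer1g had no count and the sum ran from 0 to 462. Of the 8 vascular markers, led by Ly6c1, Cldn5 and Acta2 had no count and the sum ran from 0 to 290. All members are made by many cell types, and in such a pool fewer cells of a type and less RNA per cell cannot be told apart. The ratio of gene counts to spike-in counts ran from 5.86 in library 3 to 19.9 in library 13, with libraries 1 and 4 next to the top.

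The members together took 1.04 ± 0.186% of the TPM of annotated genes, from 0.611% in library 1 to 1.27% in library 3. Their summed level was 8565 ± 1231 TPM (n = 12). Actb alone made up 67.9 ± 3.79% of that sum, between 64.5% and 76.9%. The 2 actins summed to 3.41 ± 0.581 times the 8 binding proteins, and the ratio stayed between 2.62 (library 13) and 4.31 (library 12). Actin mRNA was therefore the larger part in every library.

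**Figure D1:**
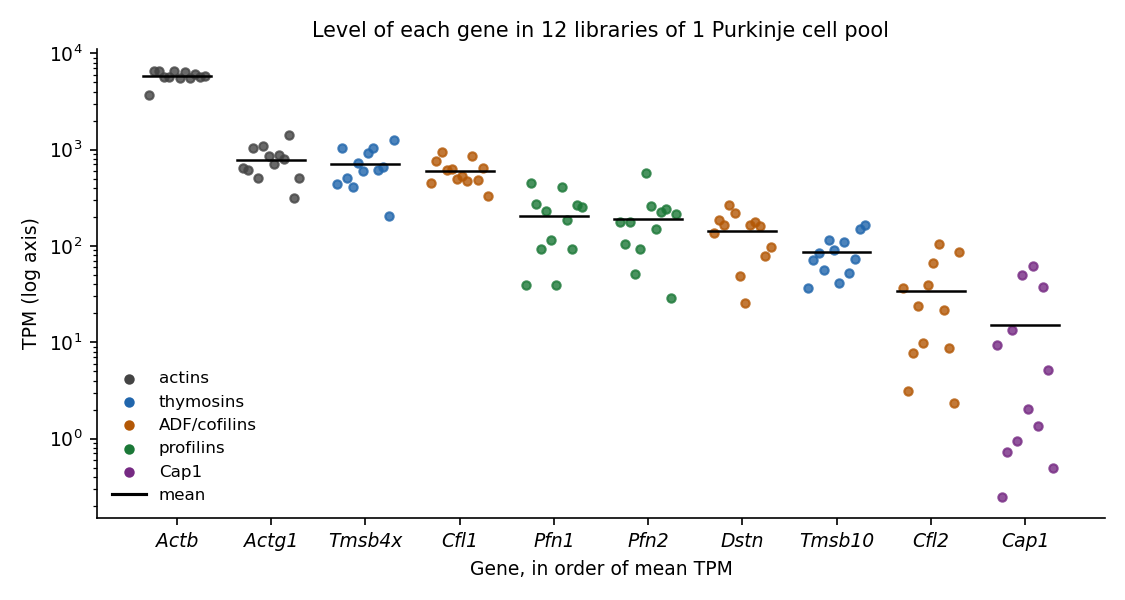
TPM of the 10 genes (log axis) in the 12 libraries, with 1 point per library and a bar at the mean. Actb lies between 3670 and 6605 TPM above all other members, and Cap1 is spread from 0.25 to 61.7 TPM.

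Actb (ENSMUSG00000029580.10, chr5:142903115-142906754) encodes beta-actin, the actin of dynamic cortical filaments and spines. It had a lowest level of 3670 TPM (library 1), a median of 5727 and a highest of 6605 (library 6), and its mean of 5806 ± 793 was 14th among the annotated genes. The other 11 libraries lay between 5470 and 6605 TPM, so library 1 stood apart at the bottom. Actg1 (ENSMUSG00000062825.11, chr11:120345690-120348542), the gamma-actin gene, ran from 312 TPM (library 12) through a median of 750 to 1427 (library 11). The 2 ranges did not overlap. Within libraries Actb exceeded Actg1 by 2.98 ± 0.57 in log2(TPM + 1), about 7.90-fold, in 12 of 12 libraries (exact sign-flip permutation test, two-sided, Benjamini-Hochberg adjusted p = 0.000758, from the smallest unadjusted p that 12 libraries allow, 0.000488). Actb held 88.2 ± 3.84% of the cytoplasmic actin TPM. The muscle and other actin genes were near absent. Acta1, the skeletal muscle actin, had counts in 4 libraries (3.16 ± 9.95 TPM, 34.6 at most). Acta2, Actc1, Actg2 and Actbl2 had no count in any library. Reads were amplified, so a count of 0 sets no firm upper limit on the level.

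The ADF/cofilin genes were ordered Cfl1, Dstn, Cfl2. Cfl1 (ENSMUSG00000056201.6, chr19:5490455-5495201), the main non-muscle cofilin, had a lowest level of 331 TPM (library 13), a median of 575 and a highest of 944 (library 3). Dstn (ENSMUSG00000015932.8, chr2:143915320-143943324) ran from 25.7 (library 8) through 162 to 268 TPM (library 4), all below the lowest Cfl1 value. Cfl2 (ENSMUSG00000062929.7, chr12:54858809-54862877), best known from muscle, ran from 2.36 (library 12) through 22.7 to 105 TPM (library 9). Cfl1 exceeded Dstn by 2.23 ± 0.91 and Cfl2 by 4.80 ± 1.97 in log2(TPM + 1), both in 12 of 12 libraries, each with an adjusted p of 0.000758 in the exact sign-flip permutation test. Cfl1 supplied 76.7 ± 8.64% of the family's TPM, Dstn 18.1 ± 7.46% and Cfl2 5.23 ± 5.77%. Cfl2 supplied 16.9% in library 13 and 0.325% in library 12.

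Cfl1 and Cfl2 stood in opposite order over the libraries. Their Spearman rho was -0.72, the lowest of the 45 member pairs. Cfl1 was lowest in library 13, where Cfl2 was 87.0 TPM, and Cfl2 was 3.12 TPM in library 2, where Cfl1 was 760. Both also moved with the gene to spike-in ratio of the libraries, with a rho of -0.70 for Cfl1 and 0.61 for Cfl2. These are descriptions over 12 splits that share 1 pool and whose TPM share 1 total; the part of the spike-in ratio in the relation was not tested.

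The 2 profilins were close in mean TPM (204 ± 136 for Pfn1 and 190 ± 140 for Pfn2) and their order changed between libraries. Pfn1 (ENSMUSG00000018293.4, chr11:70651850-70654644), the ubiquitous profilin, ran from 39.5 (library 8) through a median of 209 to 450 TPM (library 2). Pfn2 (ENSMUSG00000027805.12, chr3:57841895-57848079), the profilin that predominates in brain, ran from 28.7 (library 12) through 177 to 567 TPM (library 6). Pfn1 minus Pfn2 was 0.082 ± 1.86 in log2(TPM + 1), with Pfn1 higher in 7 of 12 libraries (exact sign-flip permutation test, adjusted p = 0.880). The difference ran from -2.68 in library 8 to 3.17 in library 12, so Pfn1 supplied between 13.2% and 90.3% of profilin TPM. No order of the profilins could be given. The sum of both varied less than either gene, as sums of 2 genes of similar mean and SD do unless the genes move together. Its coefficient of variation (CV, SD over mean) was 0.395, against 0.665 for Pfn1 and 0.735 for Pfn2.

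Tmsb4x (ENSMUSG00000049775.12, chrX:167207093-167209315), thymosin beta-4, had a lowest level of 204 TPM (library 12), a median of 639 and a highest of 1253 (library 13). Tmsb10 (ENSMUSG00000079523.4, chr6:72957347-72958748), thymosin beta-10, known for its high level in developing brain, ran from 36.4 (library 1) through 78.7 to 166 TPM (library 13). Tmsb4x exceeded Tmsb10 by 2.99 ± 0.97 in log2(TPM + 1) in 12 of 12 libraries (exact sign-flip permutation test, adjusted p = 0.000758). The difference was 2.57 or more in 11 libraries and 0.44 in library 12, where Tmsb4x was lowest and supplied 57.7% of thymosin TPM. Tmsb4x is also abundant in microglia and vessels. Its level had a rho of 0.43 with the summed microglia markers and 0.50 with the summed vascular markers. The rho was 0.42, 0.41 and 0.38 with the interneuron, red blood cell and granule cell markers. The vascular sum was 290 TPM in library 13, 45.1 in library 9, 17.8 in library 10 and 1.10 or less in the other 9. Microglia markers summed to 1.05 TPM in library 12. In libraries 5, 6 and 11 they summed to 4.13, 0.05 and 0 TPM, where Tmsb4x was 733, 604 and 659 TPM. The part of these cells in the Tmsb4x level was not tested.

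Cap1 (ENSMUSG00000028656.10, chr4:122859047-122886056) was the lowest member and had the largest CV, 1.43, close to the median of 1.46 among genes of similar mean count. Its lowest level was 0.25 TPM (library 2), its median 3.57 and its highest 61.7 (library 9). Libraries 6, 9 and 11 held 49.4, 61.7 and 37.8 TPM, and no other library exceeded 13.5. It reached 50 counts in 8 libraries, while the other 9 members did so in all 12. Cap2, the cyclase-associated protein enriched in brain and muscle, stood at 49.1 ± 31.9 TPM, from 17.2 to 115, with at least 50 counts in every library.

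**Figure D2:**
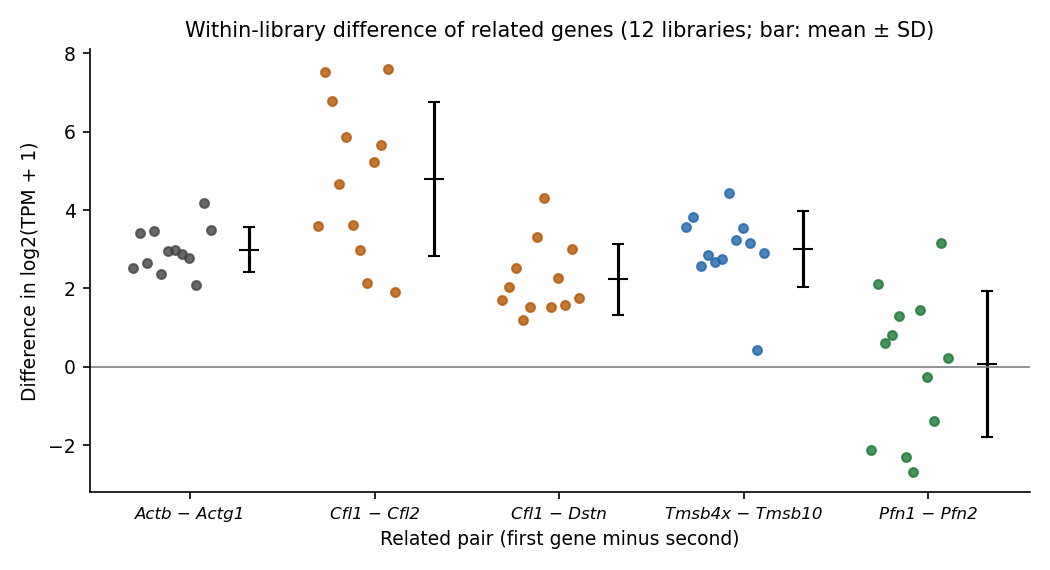
Difference in log2(TPM + 1) between related genes within each library, with 1 point per library and the mean ± SD beside the points. All points of the first 4 pairs lie above 0, and those of Pfn1 minus Pfn2 run from -2.68 to 3.17.

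Of the 45 member pairs, 37 differed past an adjusted p of 0.05, 29 of them with the same sign in 12 of 12 libraries. By mean TPM the order was Actb, Actg1, Tmsb4x, Cfl1, Pfn1, Pfn2, Dstn, Tmsb10, Cfl2 and Cap1. Among the 9 neighbours in this order, 4 pairs passed: Actb over Actg1, Cfl1 over Pfn1 (1.87 ± 1.12 in log2, 12 of 12 libraries), Tmsb10 over Cfl2 (1.94 ± 1.89, 10 of 12, adjusted p = 0.00377 by the same permutation test) and Cfl2 over Cap1 (1.70 ± 2.23, 9 of 12, adjusted p = 0.0279). The other 5 did not, and none of the 3 pairs among Actg1, Tmsb4x and Cfl1 passed. Actg1 minus Tmsb4x was 0.20 ± 0.72 and Tmsb4x minus Cfl1 was 0.14 ± 0.95. Pfn2 minus Dstn was 0.28 ± 1.76 and Dstn minus Tmsb10 0.63 ± 1.15. Pfn1, further from Tmsb10 in the order, exceeded it by 0.99 ± 0.83 in 11 of 12 libraries (adjusted p = 0.00133, exact sign-flip permutation test). The order of Tmsb10 and Cfl2 holds per length only: on CPM, which is not corrected for length, the difference was -0.52 and did not pass (adjusted p = 0.390). Without library 5, 8, 10 or 13 in turn, the adjusted p of Cfl2 over Cap1 rose to between 0.0532 and 0.0558.

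The spread of each gene over the libraries was read beside genes of similar mean count. Actb had a CV of 0.137, the lowest of the 51 genes nearest to it in count, whose median was 0.287. Without library 1 the CV of Actb was 0.0734. Divided by the spike-in counts of each library in place of the TPM total, it was 0.379 over all 12. Cfl1 (0.299) and Dstn (0.489) lay below the median of their neighbours in count (0.383 and 0.592), and Actg1 (0.389) and Tmsb4x (0.437) were above theirs (0.326 and 0.424). Pfn1 (0.665) lay below its neighbours' median (0.764), and Cfl2 (1.01) and Cap1 were close to theirs (1.00 and 1.46). Beside neighbours in mean TPM, Pfn1 lay above the median (0.615), and Cfl2 and Cap1 lay below theirs (1.21 and 1.59). The other members kept their side. Pfn2, at 0.735, lay above its neighbours' median of 0.523, but at 0.498 without library 6. Tmsb10 had a CV of 0.474 where the median of 501 neighbours was 1.37, and only 3 of them had a lower CV. Per spike-in count its CV was 0.830, and that of Tmsb4x was 0.770. The neighbours' medians were taken from TPM only, so no CV per spike-in count, that of Actb included, can be set beside them.

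Quasi-dispersions were then tested against their trend with abundance (edgeR quasi-likelihood fit, Benjamini-Hochberg adjusted over 13899 genes). By that test 1 of 10 members, Tmsb10, varied less than genes of its abundance, with an adjusted p of 0.00179. Of all genes tested, 2.27% were called in that direction. The Tmsb10 transcript is short, so its neighbours in count have lower TPM. With abundance taken by mean TPM, its adjusted p was 0.0144 and its CV was the 34th lowest of 501, where the median was 0.835. Actb did not pass (adjusted p = 0.890). No member varied more than the trend, and 0% of all genes were called so: 141 of 13899 had an unadjusted p under 0.05, none of them a member. In simulated counts for 13613 genes, the lower test recovered 98% of genes given 20-fold lower dispersion. Those genes all had mean counts above those of Tmsb10 and Cap1, so the figure does not cover these members. The upper test recovered 14.8% of genes of any abundance given 20-fold dispersion, and 28.2% of those in the higher count range. A count of 0 in the upper test therefore says little.

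**Figure D3:**
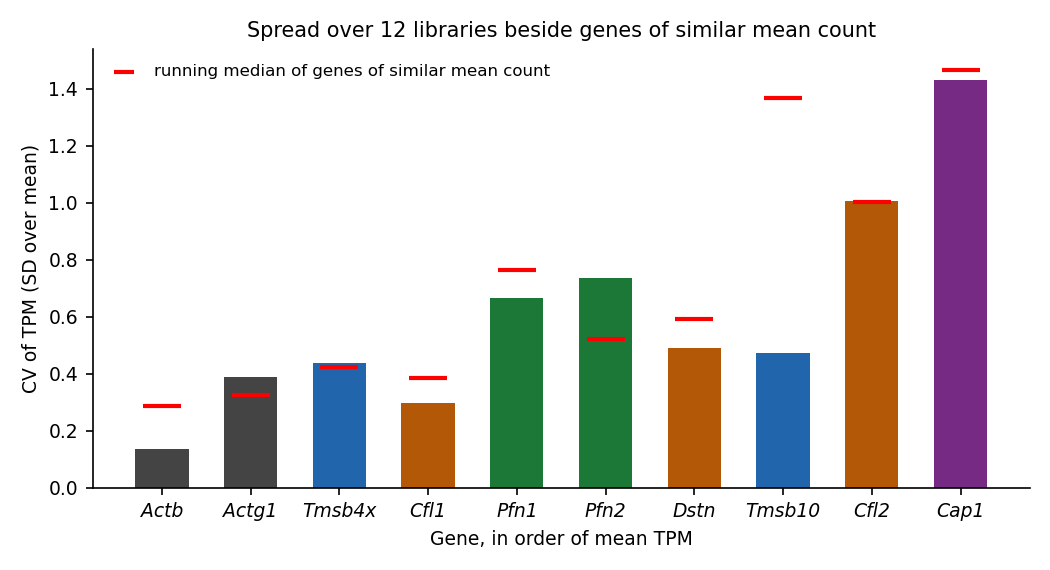
CV of TPM over the 12 libraries for each gene (bars, from 0) with the running median of genes of similar mean count (red marks). Tmsb10, at 0.474, lies far under its mark at 1.37, and Actb, at 0.137, under its mark at 0.287.

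Over the libraries the members did not move as a block. Spearman's rho between members had a median of 0.056 over 45 pairs, with 27 positive and 18 negative, up to 0.59 for Pfn1 and Tmsb10. Library 1 was lowest for Actb, at 0.65 below the mean in log2, and for Tmsb10. Library 12 was lowest for Actg1, Tmsb4x, Pfn2 and Cfl2. Library 9 was highest for Cfl2 and Cap1, and held 1.38 above the mean in Pfn1. Among 1604 other genes with at least 50 counts in every library, those most like Actb in rank over the 12 libraries were Cpne2 (rho 0.87, 46.6 ± 49.4 TPM), Sfxn5 (0.80, 55.0 ± 37.0 TPM) and Atp1b2 (0.80, 195 ± 65.6 TPM). These points also share 1 pool and 1 TPM total.

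**Figure D4:**
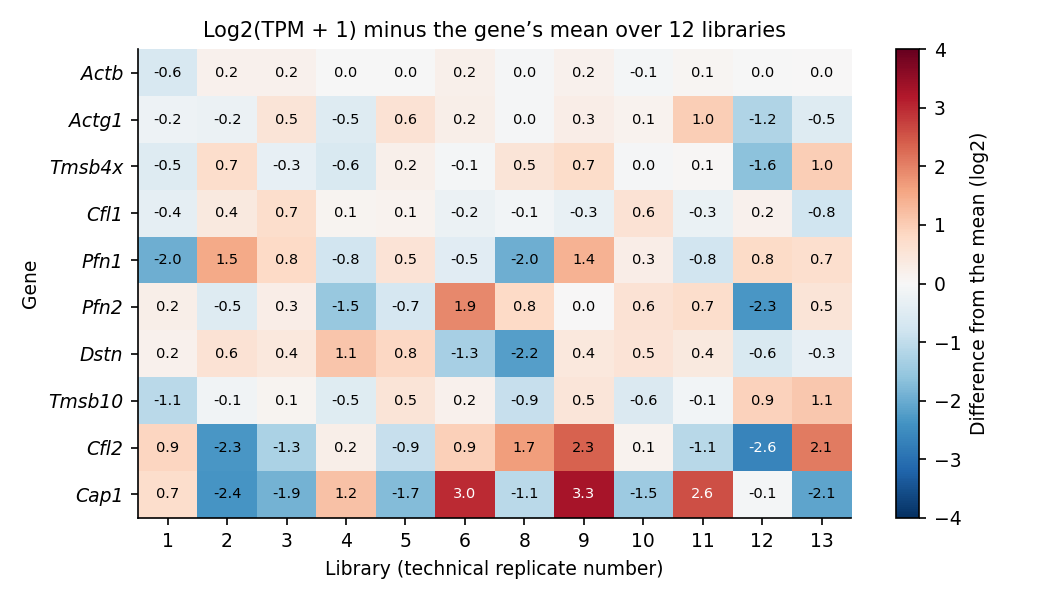
Log2(TPM + 1) of each gene in each library minus the gene's mean over the 12 libraries, with red above and blue below the mean. Actb differs from its mean by no more than 0.65 in any library, and the extreme values, -2.63 for Cfl2 in library 12 and 3.28 for Cap1 in library 9, lie in the rows of the least abundant members.

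The transcript tables split some of these genes between isoforms that changed from library to library. Of the 42 annotated transcripts of the members, 33 had a count in at least 1 library, and Cfl1, Cfl2 and Dstn have only 1 each. Actb-201 held 99.9 ± 0.175% of Actb TPM, Pfn2-201 99.0 ± 3.10% of Pfn2 and Cap1-201 all of Cap1. In 6 of the 7 genes with several transcripts the next transcript had counts, and in 5 of these 6 the leading transcript exceeded it (exact sign-flip permutation test, adjusted p of 0.00171 or less). Since the 2 transcripts were ranked on the same values, this describes stability over libraries only. The next transcript had counts in only 1 library for Actb, 3 for Pfn2 and 5 for Tmsb4x, so there the test mostly compares with 0. For Cap1 the next transcript was at 0 throughout, so there was nothing to test, though Cap1 stayed among the 7 genes adjusted together.

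Pfn1 was the exception. Its coding transcript Pfn1-201 averaged 154 ± 130 TPM and Pfn1-204, annotated as a target of nonsense-mediated decay, 49.9 ± 40.2 TPM. Pfn1-204 skips the first 25 bases of exon 2 (chr11:70652955-70652979, minus strand), starts 23 bases later and ends 89 bases earlier. The junction of exons 1 and 2 is printed for both, with the 25 bases in capitals, because reads across it tell the forms apart.
Pfn1-201: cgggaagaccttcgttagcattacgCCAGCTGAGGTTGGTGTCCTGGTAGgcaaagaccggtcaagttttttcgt
Pfn1-204: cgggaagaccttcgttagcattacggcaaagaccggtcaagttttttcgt
Pfn1-204 made up from 0% of Pfn1 in library 3 to 88.9% in library 11, and it was the larger form in libraries 1, 4, 8 and 11. In library 11 Pfn1-201 was 10.3 TPM and Pfn1-204 82.2, while in library 9 they were 401 and 9.38. The 4 libraries led by Pfn1-204 were the 4 lowest in Pfn1 as a whole, at 39.5 to 92.5 TPM. The difference between the forms, 1.39 ± 3.21 in log2(TPM + 1), had an adjusted p of 0.162 in the exact sign-flip permutation test, with Pfn1-201 higher in 8 of 12 libraries.

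**Figure D5:**
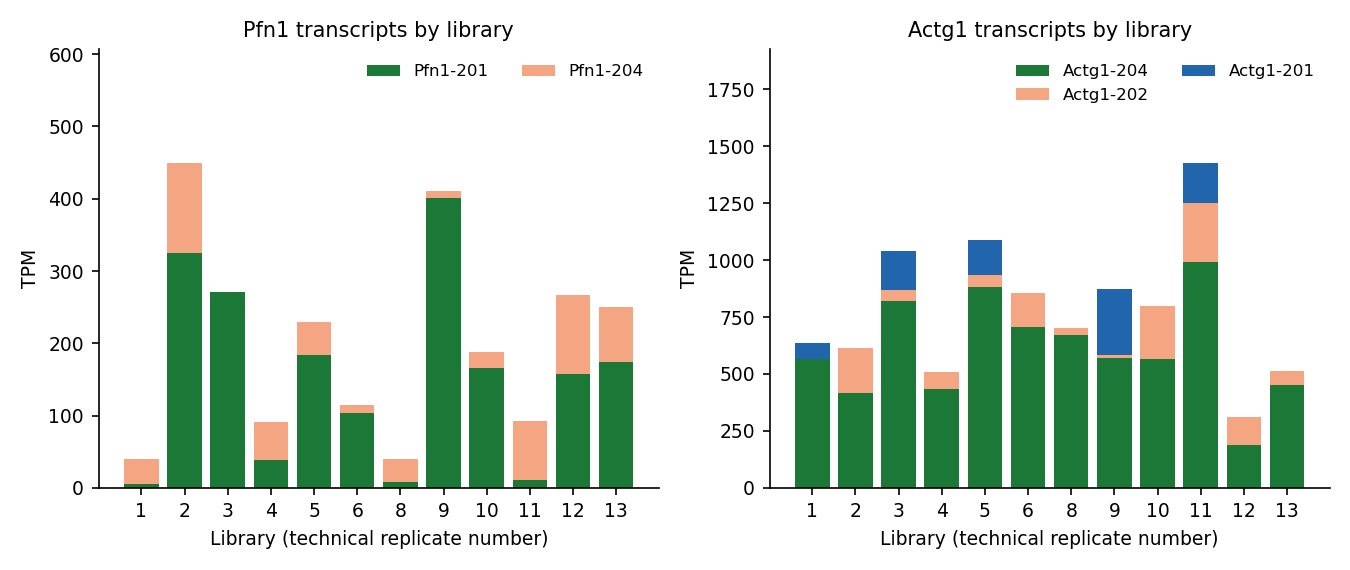
TPM of the leading transcripts of Pfn1 (left) and Actg1 (right) in each library, stacked. Pfn1-204 exceeds Pfn1-201 in libraries 1, 4, 8 and 11, and Actg1-201 appears in libraries 1, 3, 5, 9 and 11 only.

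Actg1 was split over 3 transcripts. Actg1-204, which lacks 124 bases at the 5′ end of Actg1-202 and has the same coding sequence, led in 12 of 12 libraries with 606 ± 224 TPM, and Actg1-202 held 103 ± 87.5 TPM. Actg1-201 was listed at 69.2 to 290 TPM in libraries 1, 3, 5, 9 and 11 and at 0 in the other 7. It keeps 13 of the 240 bases of exon 3 (chr11:120347863-120347875, minus strand), skips the exon of 439 bases that follows and ends 343 bases earlier. The short exon is shown in capitals between its neighbours, the sequence by which reads of this form can be recognised.
Actg1-201: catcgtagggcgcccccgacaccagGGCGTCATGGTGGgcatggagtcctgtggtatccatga
In library 9 it made up 33.2% of Actg1 TPM.

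Tmsb10 changed its leading form in library 3, and Tmsb4x did not change in any. Tmsb10-203 led in 11 of 12 libraries, but in library 3 it was 2.69 TPM and Tmsb10-202, whose first exon reaches 278 bases into the upstream intron, was 82.2. Tmsb10-202 was 17.4 TPM in library 13 and at most 0.54 elsewhere. The gene total in library 3, 84.9 TPM, was near the median of 78.7. Tmsb4x-201 led in all 12 libraries with 96.6 ± 5.97% of the TPM. Tmsb4x-203, whose start exon lies further downstream, was listed in libraries 3, 5, 8, 10 and 11 at 5.87 to 104 TPM.

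Genes that act on the same monomer pool were counted from lists of the pathway. Of 61 listed genes tested for variation, 0 varied more and 0 less than the abundance trend after adjustment (edgeR). At an unadjusted p under 0.05, Nckap1 was above it and Cap2, Mtss1l and Fmn2 below. These are 1.64% and 4.92% of the list, beside 1.01% and 5.72% of all genes tested (795 of 13899 below). Fmn2 was low by quasi-dispersion and not by CV, which was 1.33 where its neighbours' median was 0.980. Among 12 other monomer-binding genes, 9 had a mean of at least 1 TPM and 5 had a count in every library. Mtss1, which links monomers to the membrane and is known from Purkinje spines, was highest at 116 ± 31.6 TPM, Cap2 followed, and Cobl was lowest among those measured, with counts in 1 library. Pfn3 and Tmsb15a had no count. The Arp2/3 complex, which starts branched filaments, summed to 910 ± 210 TPM, with Arpc4 at 266 ± 87.6 and Actr2 at 162 ± 49.1. Of its 10 subunit genes, 9 had a mean of at least 1 TPM and 6 had a count in every library. Arpc1b, the alternative to Arpc1a, had counts in 1 library (0.652 TPM on average).

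Of 14 cofilin regulators in the tables, 12 had a mean of at least 1 TPM, but only 3 had a count in every library. Coro1b, a coronin, was at 77.0 ± 74.2 TPM and Wdr1, which helps cofilin to sever, at 58.9 ± 38.1, while the kinase Tesk2 was lowest at 0.0075. Of 16 nucleation-promoting factors and formins, 15 had such a mean and 9 had a count in every library. They were led by the WAVE complex genes Brk1 (173 ± 144) and Nckap1 (55.7 ± 55.3), and Was, of blood cells, was lowest at 0.015. Of 10 capping and severing proteins, 9 had such a mean and 5 had a count in every library. They were led by Capza2 (132 ± 120) and Capzb (117 ± 74.0), the subunits of the filament end cap, with Add2 lowest among those measured at 1.07. Srf, the transcription factor that drives actin genes when its cofactors sense few free monomers, was at 0.41 ± 1.22 TPM with counts in 3 libraries. Its cofactors Mkl2 and Mkl1 stood at 5.83 ± 5.64 and 3.15 ± 6.50 TPM.

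The deposited TPM intervals were narrow beside the spread between libraries for the abundant members. The width to either side of the posterior mean was 0.392% to 0.579% for Actb, whose CV was 0.137, and 4.65% to 11.2% for Tmsb10. For Cap1 it was 4.01% to 59.3%. These intervals do not cover the spread added by amplification, since reads were amplified and carry no molecular identifiers.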

How the data were processed

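The 12 Smart-seq libraries form 1 group. Per the file headers, each deposited table gives expected counts (estimated reads per feature), TPM and posterior mean TPM with interval bounds, and for transcripts the percent of each gene's abundance, which was not used, since shares were computed from TPM. Per the deposited text files, the authors quantified on mm10 with GENCODE M4. The names of aligner and counter were not given in the sources used here. TPM is scaled per library with spike-ins and unnamed features included. The interval bounds are the authors' other deposited values, and their level is not stated.

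GENCODE M21, also on mm10, supplied symbols, coordinates and sequences. Copies were found with blastn 2.17.0. Levels of genes in the same library were compared as differences in log2(TPM + 1), by an exact sign-flip permutation test (two-sided, 4096 sign patterns), adjusted by the Benjamini-Hochberg method over 45 pairs, or over the 7 genes with several transcripts. Spread was tested in edgeR 4.0.16 with TMM factors on expected counts rounded to whole numbers, keeping genes whose counts averaged 5 or more. The abundance trend is a running median over 501 genes, narrowing to 51 at the ends, because the spline trend of glmQLFit failed on simulated data; the residual distribution was fitted with limma's fitFDist. Both tests were tested on simulated data. DESeq2 1.42.0 gave size factors for an alternative. The leading Pfn2 transcript is longer in M21 (2342 bases) than in the tables (1827).

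The members, lists and tests were chosen with earlier results of these data known. Named beside the members are the 2 highest and the lowest measured gene of each pathway list, listed genes called for variation, the 3 genes most like Actb, copies of at least 1 TPM and the highest marker of each cell type. Mtss1l, Fmn2, Gm9844, genes without a count and the overlapping genes were named after their values were seen. Total counts per library ran from 15167444 to 27806010.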

Additional observations from a re-analysis of the deposited data

How the results depend on the processing

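Alternatives for the levels were a pseudocount of 0.1, CPM without length correction, posterior mean TPM and adding the near-identical copies. Those for the spread were DESeq2 size factors, a mean count of at least 50 and no filter. Each library was also left out in turn. The variance of log2 CPM, abundance by mean TPM and division by spike-in counts were chosen after seeing the data. The spline trend was the planned one, and the running median replaced it as the main trend after it failed on simulated data. The number of member pairs that differed was 37 to 39 under the changed settings and 36 to 39 without a library. Of the 5 related pairs, 4 passed under each. Tmsb10 kept an adjusted p of 0.000502 to 0.0144 over its 18 alternatives, and no member varied more than the trend in any of them. With the spline trend Actb had an unadjusted p of 0.00435 (adjusted 0.773) for greater spread, the opposite side from its low CV. Pfn2 minus Pfn1 (-0.082 in log2) was 1.19 with CPM, where the longer Pfn2 transcript counts for more, and ran from -0.33 to 0.20 without a library, and was 0.10, 0.029, 0.043 and 0.20 without replicate 2, 5, 9 and 12. Tmsb4x minus Cfl1 became -0.52 with CPM and -0.026 without replicate 13 (-0.026 to 0.30 over all left-out libraries), Tmsb10 minus Cfl2 became -0.52 with CPM and no longer passed, and Pfn2 minus Dstn became -0.017 without replicate 6 (-0.017 to 0.52). With CPM, Actg1 over Tmsb4x (1.52) and Dstn over Tmsb10 (2.52) also passed. The CV of Actb was 0.204 from TMM-scaled counts, 0.171 with TPM rescaled to annotated genes and 0.379 per spike-in count. Per spike-in count those of Tmsb10, Tmsb4x and Dstn were 0.830, 0.770 and 0.700, from 0.474, 0.437 and 0.489. Leaving out libraries, also chosen after seeing the data, moved the CV of Actb to 0.0734 without replicate 1 and that of Pfn2 to 0.498 without replicate 6. No paired analysis was possible because there is 1 group, so no replicate numbers are shared between groups; the tests between genes are paired within libraries. Low counts limit Cap1 most, which had fewer than 50 in 4 libraries. Its level had a rho of -0.19 with the total counts of the libraries. The strain is a hybrid, and how its alleles aligned to mm10 was not tested.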
